A study of Capra hircus with 13 samples.

Results

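The genes described here are those that encode the proteins of the cytosolic ribosome in goat (Capra hircus), chosen by name alone: every listed name that starts with RPL or RPS and a digit, with RPLP0, RPLP1, RPLP2 and RPSA, and without the S6 kinase genes (RPS6K) and RPS19BP1, which encode other proteins. The rule found 81 genes among 27161 names, 32 of the small and 49 of the large subunit, and all 81 symbols are in the RefSeq gene table. The MII tables list 79 of them, those of 4- and 8-cell embryos list 80, with RPL37A added, and those of injected embryos list 81, with RPL10L added. RPL3L, the muscle form of RPL3, is listed at 0 in all 13 libraries. The other members each had at least 2 fragments in every untreated library that lists them and at most 14660, apart from RPL37A, whose fragments were not recovered.

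Smart-seq2 RNA-seq libraries were available from untreated MII oocytes (3), 4-cell embryos (3) and 8-cell embryos (3). The others were from 8-cell embryos of a knockdown experiment, with NC siRNA (2) or YTHDF2 siRNA (2). Zygotes had been injected with 20 µM YTHDF2 siRNA 8 h after in vitro fertilization. The control libraries are labelled WT. Their injection with NC siRNA is inferred from the methods, which name it as the control of the knockdown. Its dose and time are not given there and are taken to be the same. NC siRNA is a universal negative control, and YTHDF2 is a reader of N6-methyladenosine (m6A) on RNA that promotes the decay of the transcripts it binds. All embryos came from in vitro fertilization, each injected library is a pool of embryos, no strain or animal age is given, and nothing tells whether replicates came from separate animals, so p-values measure only the spread between these libraries. The untreated libraries come from earlier studies by the same group and the injected ones from a new experiment, and which untreated library came from which study is not given, so study and stage cannot be told apart.

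The ribosome of the cytoplasm has a small subunit, which decodes the mRNA, and a large subunit, which joins amino acids. Each holds ribosomal RNA and many proteins, most of them made from 1 gene and present in 1 copy a ribosome, apart from the stalk proteins RPLP1 and RPLP2, which are present in more. Most of these mRNAs start with a terminal oligopyrimidine (TOP) tract, which lets growth signals set their translation together. An oocyte stores ribosomes and mRNA for the first cleavages, and the embryo makes new ones after its genome is switched on, which in goat is placed around the 8-cell stage.

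Levels are in FPKM (fragment counts scaled to gene length and library size), which can be compared between genes because it is per length. Changes are log2 fold changes on log2(FPKM + 1), which understate the change of low genes, from limma across all genes, and a gene was called where its Benjamini-Hochberg adjusted p was under 0.05. The untreated libraries hold 26853876 to 42495116 fragments, of which 54924 to 126784 lie on ribosomal protein genes. YTHDF2 itself was at 112 and 159 FPKM in the NC siRNA libraries and 8.07 and 4.47 in the YTHDF2 siRNA libraries (limma, adjusted p = 0.000367), so the knockdown matches its labels. In untreated 8-cell embryos, whose table was normalized separately, YTHDF2 was at 10.8, 16.7 and 12.5 FPKM. Of 14 oocyte markers, 13 are listed in the untreated tables, and they summed to 3050 to 5850 FPKM there and 2091 to 4724 in the injected libraries. Of 20 cumulus and granulosa cell markers, between 5 and 10 reached 1 FPKM in a library, their sum was 69.7 to 197 FPKM, and FSHR, which defines granulosa cells, was at 0.25 FPKM or less throughout. The cumulus list summed to 69.7 to 93.0 FPKM in MII, 101 to 108 in 4-cell and 138 to 197 in untreated 8-cell libraries, and of its 8 tested genes 3 were higher in 4-cell and 4 in 8-cell embryos than in MII oocytes, among them HAS2 and LUM, with 0 lower. Of 13 tested oocyte markers, 1 was lower (FIGLA) and 2 higher in 4-cell embryos, and 1 lower and 3 higher in 8-cell embryos, against MII, while between the embryo stages 1 was lower (DAZL). The part of these markers in the stage results was not tested.

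Ribosomal protein genes were a small part of the RNA in untreated oocytes and embryos. They held 1.22, 1.59 and 0.943% of summed FPKM in the MII libraries, 0.661, 0.636 and 0.699% in the 4-cell libraries, and 0.591, 0.942 and 0.621% in the 8-cell libraries, over 18138 names shared by all tables. By this share the 3 MII libraries lay above every embryo library, MII replicate 3 only just above 8-cell replicate 2, and the 4- and 8-cell libraries overlapped. As a share of the library total behind the FPKM scale the stages overlapped, at 0.229 to 0.360% in MII, 0.222 to 0.251% in 4-cell and 0.202 to 0.310% in 8-cell libraries. As a share of fragments on names shared by the stage tables, every MII library lay above every embryo library. These shares were 0.352 to 0.542% in MII, 0.229 to 0.262% in 4-cell and 0.209 to 0.327% in 8-cell libraries. MII replicate 2 and 8-cell replicate 2 had the highest summed FPKM of these genes in their groups, at 4586 and 3673, against 2693 to 3365 and 2186 to 2306 in the other libraries of the same stage. In the injected embryos the share was 8.47 and 8.49% with NC siRNA and 5.11 and 3.74% with YTHDF2 siRNA.

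**Figure D1:**
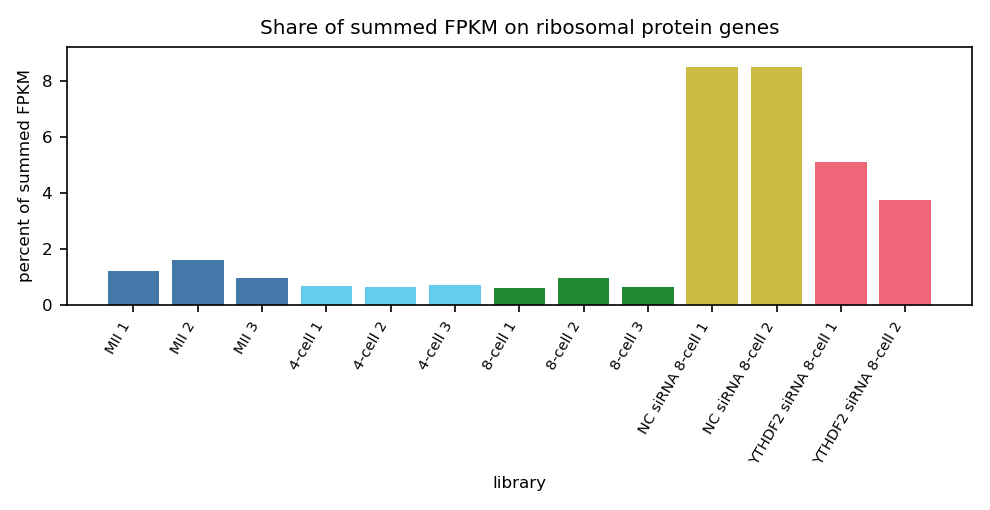
Percent of summed FPKM on ribosomal protein genes (vertical axis) in each of the 13 libraries (horizontal axis, 1 bar a library, coloured by group). The 9 untreated libraries lie between 0.591 and 1.59%, and the 4 injected libraries between 3.74 and 8.49%.

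Among untreated libraries the genes spread over a wide range of levels. RPLP0, the base of the stalk that recruits translation factors, was the highest, with a mean of 279 FPKM over the 9 libraries. RPSA, a small subunit protein also known as the laminin receptor, had a mean of 227 FPKM, RPS20 had 179, RPS6, the substrate of the S6 kinases, had 133, and RPS3 had 129. At the low end were RPL22L1 (1.68 FPKM), RPL28 (2.52), RPL39 (2.57), RPL22 (2.79) and RPL36A (2.98).

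The order of levels was not kept between stages. RPLP0 was at 246, 237 and 303 FPKM in MII oocytes, 152, 215 and 176 in 4-cell embryos and 353, 399 and 433 in 8-cell embryos. RPSA was at 145, 194 and 199 FPKM in MII, 223, 234 and 260 in 4-cell embryos and 231, 330 and 223 in 8-cell embryos. RPLP0 thus did not overlap between any pair of stages, and RPSA was lowest in the 3 MII libraries. RPL39, a short protein at the exit of the peptide tunnel, was at 2.57, 7.38 and 0.85 FPKM in MII, 1.86, 1.92 and 1.47 in 4-cell embryos and 1.69, 5.01 and 0.38 in 8-cell embryos, so its 3 stages overlapped. Of the 78 genes listed above 0 in every stage table, 53 had their highest mean FPKM in MII oocytes, with the lowest in 8-cell embryos for 30 and in 4-cell embryos for 23, an order of means with no test.

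**Figure D2:**
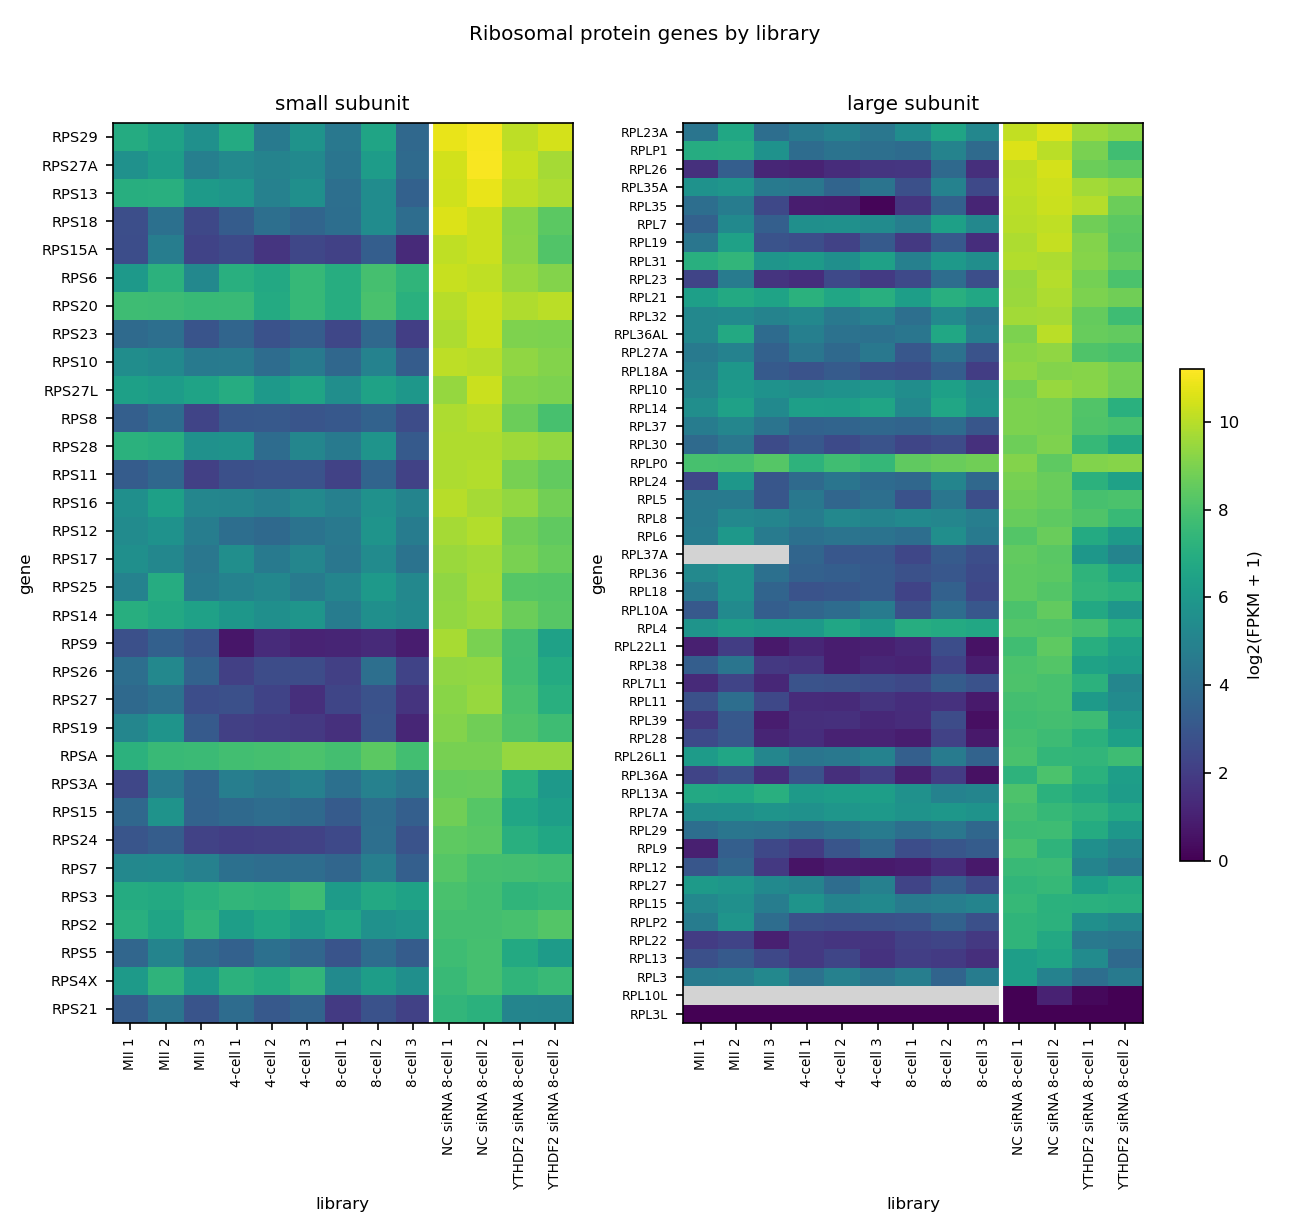
Levels of the ribosomal protein genes as log2(FPKM + 1) (colour), with genes in rows, sorted by their mean in the NC siRNA libraries within each subunit, and the 13 libraries in columns. Grey marks a gene that a table does not list, and the white line parts the untreated from the injected libraries, whose tables were normalized separately.

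From MII oocytes to 4-cell embryos, 18 of the 78 tested ribosomal protein genes fell and 1 rose. RPL35, RPS19, RPLP1, RPLP2 and RPL12 fell furthest, 4.29- to 8.47-fold on the log2(FPKM + 1) scale, while 59 members did not pass the test. Lower calls made up 6.42% of all 9090 genes tested and higher calls 24.7%. The median change of the members was -0.55, with 24 of 78 above 0, against 0.29 over all genes. By subunit, 6 of 32 small subunit and 12 of 46 large subunit genes fell, with medians of -0.51 and -0.57.

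RPL35, a large subunit protein near the tunnel exit, was at 15.4, 25.3 and 4.34 FPKM in MII oocytes and 0.87, 0.80 and 0.12 in 4-cell embryos. It fell by 3.08 ± 0.68 (SE) on the log2 scale, from 103 to 498 fragments a library to between 2 and 14 (limma, adjusted p = 0.00817). RPS19, a small subunit protein needed for its maturation, was at 34.7, 54.4 and 7.96 FPKM in MII and 3.39, 3.02 and 2.65 in 4-cell embryos. It fell by 2.70 ± 0.64 (adjusted p = 0.0114), and in both genes every 4-cell library lay below every MII library. RPL12, which lies at the foot of the stalk, was at 6.95, 12.05 and 2.59 FPKM against 0.52, 0.79 and 0.73, and changed by -2.101 ± 0.43 (adjusted p = 0.00549).

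The acidic stalk proteins fell with it. RPLP1 was at 122, 124 and 50.6 FPKM in MII oocytes and 14.4, 18.1 and 16.1 in 4-cell embryos, a change of -2.44 ± 0.40 (adjusted p = 0.00201). RPLP2, its partner in the stalk dimer, was at 25.0, 56.9 and 15.3 FPKM against 5.79, 5.45 and 5.71, and fell by 2.13 ± 0.42 (adjusted p = 0.00473). RPLP0, which carries both, fell by 0.54 ± 0.18 (adjusted p = 0.0454). That call was lost in 10 of 18 alternative settings, with adjusted p from 0.0048 to 0.154.

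RPL5 and RPL11 join 5S RNA in a particle that also restrains MDM2. RPL11 was at 5.86, 15.8 and 4.30 FPKM in MII and 1.59, 1.53 and 2.24 in 4-cell embryos, and fell by 1.61 ± 0.42 (adjusted p = 0.0168), a call lost without 4-cell replicate 1 or 2 (adjusted p up to 0.0555). RPL5 was at 21.9, 23.8 and 7.05 FPKM against 21.7, 11.98 and 16.2, with a change of 0.05 ± 0.54 (adjusted p = 0.958). The groups of RPL11 were apart and those of RPL5 overlapped. The gene that rose was RPL7L1, a relative of RPL7 that acts in the maturation of the large subunit, at 1.56, 3.89 and 1.34 FPKM in MII and 6.40, 5.89 and 5.21 in 4-cell embryos (1.14 ± 0.33, adjusted p = 0.0269). This call was lost in 8 of 17 alternatives, both rescalings among them.

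The scaling of the tables, the filter and single libraries move these counts. The names shared by the 3 stage tables hold 64.8 to 66.3% of the fragments of the MII libraries and 94.7 to 96.97% of those of the embryo libraries. With all libraries set to the same sum over the shared names, 28 members were lower and 0 higher, and with median-ratio rescaling 23 and 0. The median of all genes went to -0.14 and 0.06, and the members lay 0.89 and 0.88 below it, against 0.83 on the deposited scale. With no filter on low genes, 10 members were lower and 0 higher. Without MII replicate 2, 8 members were lower and 6 higher, and the median was -0.19. Without MII replicate 1 or 4-cell replicate 1, 2 or 3 the lower count was 8, 9, 10 and 10. The members are short, with a median length of 719 bases against 2837 over all genes past the filter, and with the length trend of all genes taken out the median was -0.31.

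From MII oocytes to 8-cell embryos, 25 of 78 genes fell and 3 rose, against lower calls in 10% and higher calls in 27.3% of all genes. The median was -0.75, with 21 of 78 above 0 and a median of 0.37 over all genes. The small subunit had 8 of 32 genes lower and none higher (27 of 32 below 0, median -0.78), and the large subunit 17 of 46 lower and 3 higher (30 of 46 below 0, median -0.63). These results share the MII libraries with the 4-cell comparison.

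RPL27 of the large subunit was at 68.1, 58.0 and 39.4 FPKM in MII oocytes, 31.3, 15.3 and 28.8 in 4-cell embryos and 3.97, 9.10 and 4.56 in 8-cell embryos. It fell in 2 steps without overlap, by 3.07 ± 0.36 from MII to the 8-cell stage (adjusted p = 0.000274) and by 1.94 ± 0.36 from the 4- to the 8-cell stage (adjusted p = 0.0147). RPS13, a small subunit protein that contacts the large one, was at 129, 134 and 67.9 FPKM in MII and 15.9, 42.2 and 10.1 in 8-cell embryos, and fell by 2.41 ± 0.49 (adjusted p = 0.00424). RPS19 was at 1.92, 6.43 and 1.30 FPKM in 8-cell embryos and fell by 2.83 ± 0.64 (adjusted p = 0.00758), with the 8-cell libraries at the level of the 4-cell ones.

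RPL19, which forms a bridge to the small subunit, was at 20.3, 84.4 and 6.32 FPKM in MII and 2.58, 7.78 and 1.80 in 8-cell embryos. Its change of -2.41 ± 0.78 (adjusted p = 0.0362) rested on a wide MII spread with overlapping groups, and was lost in 8 of 18 alternatives, with adjusted p from 0.0078 to 0.119. RPLP1 was at 13.9, 31.2 and 13.5 FPKM in 8-cell embryos and fell by 2.28 ± 0.40 (adjusted p = 0.00205). RPLP2, at 5.99, 10.4 and 5.57 FPKM, fell by 1.85 ± 0.42 (adjusted p = 0.00732), and RPL11, at 1.75, 2.00 and 0.74 FPKM, fell by 1.80 ± 0.42 (adjusted p = 0.0084).

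The 3 genes that rose were RPL7L1, RPL4 and RPLP0. RPL4, which lines the peptide tunnel, was at 54.4, 74.3 and 63.7 FPKM in MII and 125, 113 and 104 in 8-cell embryos (0.83 ± 0.20, adjusted p = 0.00943). RPL7L1 was at 4.36, 8.69 and 6.11 FPKM in 8-cell embryos (1.22 ± 0.33, adjusted p = 0.017). RPLP0 rose by 0.59 ± 0.18 (adjusted p = 0.0261), while the stalk genes RPLP1 and RPLP2 fell. The call of RPLP0 was lost in 7 of 18 alternatives and that of RPL7L1 in 5 of 17, among them the settings without MII replicate 1 and, for each, without 8-cell replicate 2. None of the 3 was called under either rescaling, which gave 31 and 36 lower and 0 higher calls. The median of all genes moved too, to 0.05 with median-ratio rescaling and 0.02 with the same sum. The median of the members minus that of all genes was -1.15 and -1.18, against -1.11 on the deposited scale.

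RPS6 was at 64.2, 147 and 36.0 FPKM in MII oocytes, 132, 108 and 182 in 4-cell and 127, 239 and 159 in 8-cell embryos, with 8-cell against MII at 1.26 ± 0.46 (adjusted p = 0.0548). RPSA differed by 0.53 ± 0.20 (adjusted p = 0.0607) and RPL5 by -0.75 ± 0.54 (adjusted p = 0.304). RPS27A, made as a fusion with ubiquitin, was at 50.4, 74.3 and 27.6 FPKM in MII and 19.2, 73.0 and 13.8 in 8-cell embryos (-0.77 ± 0.55, adjusted p = 0.302). Only RPSA among these had every 8-cell library above every MII library.

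With 8-cell replicate 2 left out, 35 members were lower and 1 higher than in MII, and with MII replicate 2 left out, 15 and 8. Without MII replicate 1 or 8-cell replicate 3 the lower count was 14 and 13, and with no filter on low genes it was 15. With both high libraries left out, a setting chosen after seeing the data, 27 were lower and 8 higher, with a median of -0.70. The length trend taken out left a median of -0.37.

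Between the 4- and 8-cell stages, 4 of 78 genes fell and 1 rose, close to the share in all genes (5.24% lower, 3.06% higher), and the median was -0.12 against 0.07. Besides RPL27, the genes that fell were RPS4X, RPS3 and RPL13A. RPS3, a small subunit protein at the mRNA entry, was at 163, 157 and 210 FPKM in 4-cell and 69.3, 107 and 87.8 in 8-cell embryos, and fell by 1.01 ± 0.20 (adjusted p = 0.0189). RPS4X was at 144, 117 and 166 FPKM against 40.4, 75.0 and 46.7 (-1.42 ± 0.36, adjusted p = 0.0427, lost in 11 of 18 alternatives). RPL13A was at 68.5, 75.3 and 77.3 FPKM against 49.7, 29.8 and 32.7 (-0.99 ± 0.21, adjusted p = 0.0242, lost in 8 of 18 alternatives). The groups of all 3 were apart.

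RPLP0 rose by 1.13 ± 0.18 (adjusted p = 0.00833) and kept this call in all 18 alternatives run. The 4 lower calls did not have that standing: none was made without 4-cell replicate 1, without 4-cell replicate 3 or without 8-cell replicate 3, and 2 were made without 4-cell replicate 2, with the replicate block and under each rescaling. Without 8-cell replicate 3 the median of the members was 0.06, and without 8-cell replicate 2 it was -0.42.

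By the rule of the study, an unadjusted p under 0.05 with over 2-fold change, 21 members were lower and 3 higher in 4-cell embryos than in MII (6.06 and 16.7% of all genes). In 8-cell embryos it was 27 and 4 (8.14 and 19.8%), and between the 4- and 8-cell stages 5 and 2 (4.28 and 4.55%).

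**Figure D3:**
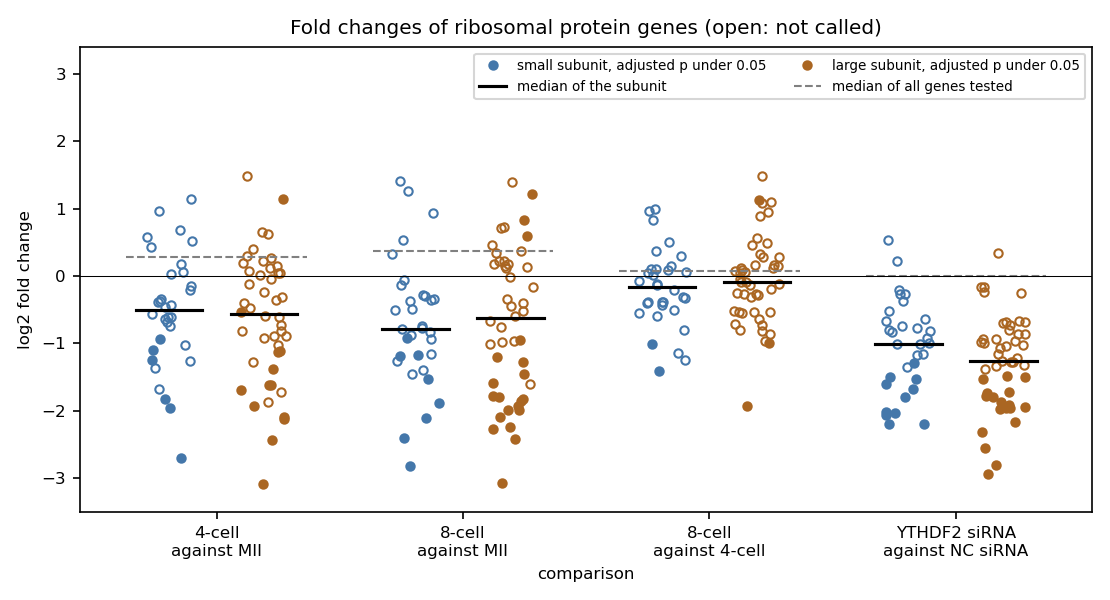
Log2 fold changes (vertical axis) of the ribosomal protein genes in the 4 comparisons (horizontal axis), small subunit in blue and large subunit in brown, 1 point a gene. Filled points have adjusted p under 0.05, black bars are medians of a subunit and dashed lines the medians of all genes tested, which lie at 0.29, 0.37, 0.07 and 0.01 from left to right.

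In 8-cell embryos injected with YTHDF2 siRNA, 29 of 79 tested ribosomal protein genes were lower than in embryos injected with NC siRNA and none was higher. Lower calls made up 5.92% of all 11004 genes and higher calls 2.06%. The median change was -1.15, against 0.01 over all genes, and 76 of 79 genes lay below 0. The small subunit had 11 of 32 genes lower (median -1.01) and the large subunit 18 of 47 (median -1.26). The 0 higher calls also held at an unadjusted p under 0.05 with limma, where 56 members were lower and 0 higher. The share of all genes at that threshold alone was not counted. By the rule of the study 44 were lower and 0 higher, against 15.3 and 9.48% of all genes. In pooled whole embryos, fewer cells with a transcript and less of it per cell cannot be told apart.

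RPL37A, a zinc finger protein of the large subunit, was at 367 and 324 FPKM with NC siRNA and 60.1 and 32.4 with YTHDF2 siRNA, and fell by 2.94 ± 0.41 (limma, adjusted p = 0.00247). RPL12 was at 190 and 195 FPKM against 32.6 and 21.7, and fell by 2.81 ± 0.40 (adjusted p = 0.00247). RPL22, whose second copy is RPL22L1, was at 158 and 106 FPKM against 22.2 and 20.2 (-2.56 ± 0.41, adjusted p = 0.00411). In these 3 genes, both knockdown libraries lay below both control libraries.

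RPL9 was at 246 and 155 FPKM against 46.1 and 31.9, and fell by 2.32 ± 0.41 (adjusted p = 0.00704). RPS21 was at 166 and 142 FPKM against 33.0 and 32.0, and fell by 2.20 ± 0.39 (adjusted p = 0.00696). Among the stalk genes, RPLP1 was at 1564 and 1053 FPKM against 492 and 220 (-1.96 ± 0.42, adjusted p = 0.0163), and RPLP2 at 161 and 148 against 46.5 and 34.9 (-1.91 ± 0.39, adjusted p = 0.0132). With no filter every knockdown call was lost, and without NC siRNA replicate 1 those of RPL9, RPLP1 and RPLP2 were lost too, RPLP1 also without YTHDF2 siRNA replicate 2. RPLP0 was at 563 and 347 FPKM against 542 and 577, a change of 0.34 ± 0.38 (adjusted p = 0.568), with overlapping groups.

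RPL11 was at 232 and 244 FPKM against 66.8 and 41.0, and fell by 2.16 ± 0.40 (adjusted p = 0.00837). RPL5, its partner on 5S RNA, was at 440 and 385 FPKM against 248 and 257, a change of -0.70 ± 0.36 (adjusted p = 0.211). RPS6 was at 1232 and 1133 FPKM against 709 and 548 (-0.92 ± 0.35, adjusted p = 0.108), and RPS27A at 1363 and 2206 against 1239 and 826 (-0.78 ± 0.38, adjusted p = 0.184). Both libraries of each group were apart in these 3 genes too, without passing the test. RPSA was at 472 and 476 FPKM with NC siRNA and 687 and 688 with YTHDF2 siRNA (0.54 ± 0.35, adjusted p = 0.321), and was with RPLP0 and RPS2 (0.23 ± 0.37, adjusted p = 0.703) 1 of 3 members above 0.

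Members at a low level in untreated 8-cell embryos, which share no library with this comparison, tended to have the larger falls. Across 79 members, the knockdown change and the untreated 8-cell level on the log2 scale had a Pearson correlation of 0.60 and a Spearman correlation of 0.57. With the MII level they were 0.65 and 0.65 (n = 78). Genes are not independent, and the points share the 4 injected libraries and, on the other axis, the untreated ones. With gene length (log10) the Pearson correlation was 0.04 (n = 78), and with the change from MII to 8-cell embryos -0.002. Of 25 members lower in 8-cell embryos than in MII, 10 were also lower with YTHDF2 siRNA, which is 40% of the former and 35.7% of the 28 latter genes tested in both. Of all 78 members tested in both, 35.9% were lower with YTHDF2 siRNA, a share like that 40%.

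**Figure D4:**
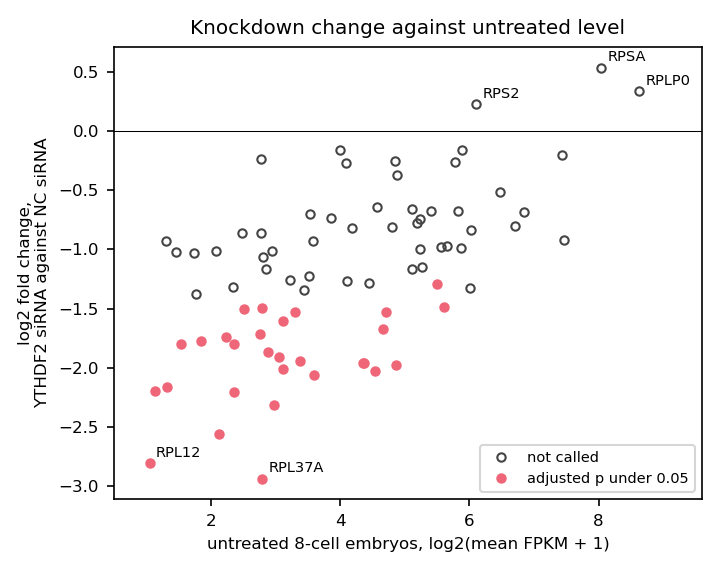
Log2 fold change of YTHDF2 siRNA against NC siRNA (vertical axis) and level in untreated 8-cell embryos as log2(mean FPKM + 1) (horizontal axis) for the 79 ribosomal protein genes tested. RPLP0, RPSA and RPS2 lie above 0, and RPL12 and RPL37A, both under 10 FPKM in untreated embryos, fell by 2.81 and 2.94.

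Oocyte transcripts also stood at other levels in the 2 groups. The 14 oocyte markers summed to 3154 and 2091 FPKM with NC siRNA and 4397 and 4724 with YTHDF2 siRNA, with a median change of 1.08 over 12 tested, 1 of them called (MOS, higher). In untreated 8-cell embryos 13 of them summed to 3935 to 5850 FPKM. KPNA7 alone was at 2364 and 1589 FPKM with NC siRNA, 3352 and 2765 with YTHDF2 siRNA and 1373 to 2705 in untreated 8-cell embryos. The sums thus say little of the other markers. OOSP2 was at 0 in the 4 injected libraries, and the cumulus and granulosa markers summed to 94.5 to 137 FPKM in both groups. The part of this difference in the ribosomal protein result was not tested.

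The count of 29 depended on the libraries, on the filter and on the replicate block (given at the end). Without NC siRNA replicate 1, NC siRNA replicate 2 or YTHDF2 siRNA replicate 2 it was 9, 15 and 9, and without YTHDF2 siRNA replicate 1 it was 39. With no filter on low genes 0 genes of any kind were called by limma (lowest adjusted p = 0.173), although 50 members were lower at an unadjusted p under 0.05. The share of all genes at that threshold was not counted. In that fit the median was -1.11 for the members and -0.03 for all genes. The median with the length trend taken out was -0.74.

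NC siRNA embryos and untreated 8-cell embryos carry the same stage label, but their tables were normalized separately and their libraries made in different studies, so the levels are set side by side without a test. The mean with NC siRNA was 32.9 times that of untreated 8-cell embryos in the median of 79 members (33.0 for the small and 32.9 for the large subunit). It was at least 10 times higher in 65 members, or 82.3%, against 5.72% of 9405 names with at least 1 FPKM, whose median ratio was 0.676. The ratio ran from 1.15 for RPLP0 and 1.81 for RPSA to 259 for RPL19 and 556 for RPS9, a small subunit protein that acts in decoding. RPS9 was at 1.20, 1.52 and 0.88 FPKM in untreated 8-cell embryos, 847 and 490 with NC siRNA and 230 and 84.8 with YTHDF2 siRNA. In 78 of 79 members both YTHDF2 siRNA libraries, too, were above all 3 untreated 8-cell libraries. The share of all names that did so was not counted, so this count is not shown to be particular to the members.

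Small subunit genes stood above large subunit genes in every library. The median of the small subunit minus that of the large one on log2(FPKM + 1) was 0.70 ± 0.32 (SD, n = 3) in MII, 0.59 ± 0.24 (n = 3) in 4-cell embryos and 1.16 ± 0.34 (n = 3) in 8-cell embryos. It was 1.07 and 1.22 with NC siRNA and 1.35 and 1.22 with YTHDF2 siRNA. The 3 untreated stages overlapped and the injected groups met at 1.22, and these differences were not tested.

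Of the members, 7 are second copies of another member, its partner, and for these the balance within a library does not depend on its scaling. RPL26L1 over RPL26 was 35.1, 10.9 and 26.7 in MII oocytes, 16.9, 12.7 and 13.1 in 4-cell embryos and 3.92, 1.87 and 5.76 in 8-cell embryos. It was 0.235 and 0.121 with NC siRNA and 0.404 and 0.610 with YTHDF2 siRNA. The second copy was thus the higher one in all 9 untreated libraries and the lower one in all 4 injected libraries.

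RPL26L1 itself fell from 69.2, 98.6 and 34.5 FPKM in MII to 19.4, 21.5 and 30.1 in 4-cell embryos (-1.38 ± 0.43, adjusted p = 0.0368, lost in 6 of 18 alternatives) and 9.52, 24.5 and 10.7 in 8-cell embryos (-2.101 ± 0.43, adjusted p = 0.00441). RPL26 was at 1.97, 9.04 and 1.29 FPKM in MII and 2.43, 13.1 and 1.86 in 8-cell embryos (0.34 ± 0.68, adjusted p = 0.724). With YTHDF2 siRNA, RPL26 went from 1076 and 1423 FPKM to 406 and 347 (-1.72 ± 0.36, adjusted p = 0.0143, lost in 3 of 12 alternatives, among them without replicate 2 of either group), while RPL26L1 was at 253 and 172 against 164 and 212 (-0.16 ± 0.39, adjusted p = 0.808).

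RPL22L1 over RPL22 was 0.335, 0.822 and 0.717 in MII, 0.485, 0.371 and 0.419 in 4-cell embryos, and 0.399, 1.32 and 0.180 in 8-cell embryos. With NC siRNA it was 1.37 and 3.23, and with YTHDF2 siRNA 5.77 and 4.20, higher in both libraries. RPS27L over RPS27 lay between 4.28 and 48.8 in the untreated libraries, at 1.18 and 1.78 with NC siRNA and at 2.095 and 3.84 with YTHDF2 siRNA. RPS27 fell with YTHDF2 siRNA (by 1.80 ± 0.40, adjusted p = 0.0185, lost in 4 of 12 alternatives, 3 of them without 1 library: NC siRNA replicate 1 or 2 or YTHDF2 siRNA replicate 2), and RPS27L changed by -0.84 ± 0.38 (adjusted p = 0.162).

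RPL36AL over RPL36A was 20.4, 33.2 and 69.1 in 8-cell embryos against 4.60 to 19.2 in MII and 4-cell libraries and 2.73 to 4.72 in the injected ones. RPL36A was at 0.97, 3.02 and 0.40 FPKM in these 8-cell embryos. That is 13, 41 and 6 fragments, against 24 to 99 in MII and 4-cell libraries, so the ratio of 69.1 rests on 6 fragments. Neither RPL36AL nor RPL36A was called between any pair of stages, and the shift in their ratio was not tested. RPL7L1 over RPL7 lay between 0.101 and 0.330 in all 13 libraries. RPL7 fell with YTHDF2 siRNA by 1.49 ± 0.36 (adjusted p = 0.0254) and RPL7L1 by 1.87 ± 0.53 (adjusted p = 0.0459), and these calls were lost in 6 and 7 of 12 alternatives. RPL10L was at 1.10 FPKM or less and RPL3L at 0. Ribosomal protein genes have many processed copies in mammalian genomes, and the authors kept uniquely mapped reads, so the levels of all members, and of similar copies above all, are uncertain.

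**Figure D5:**
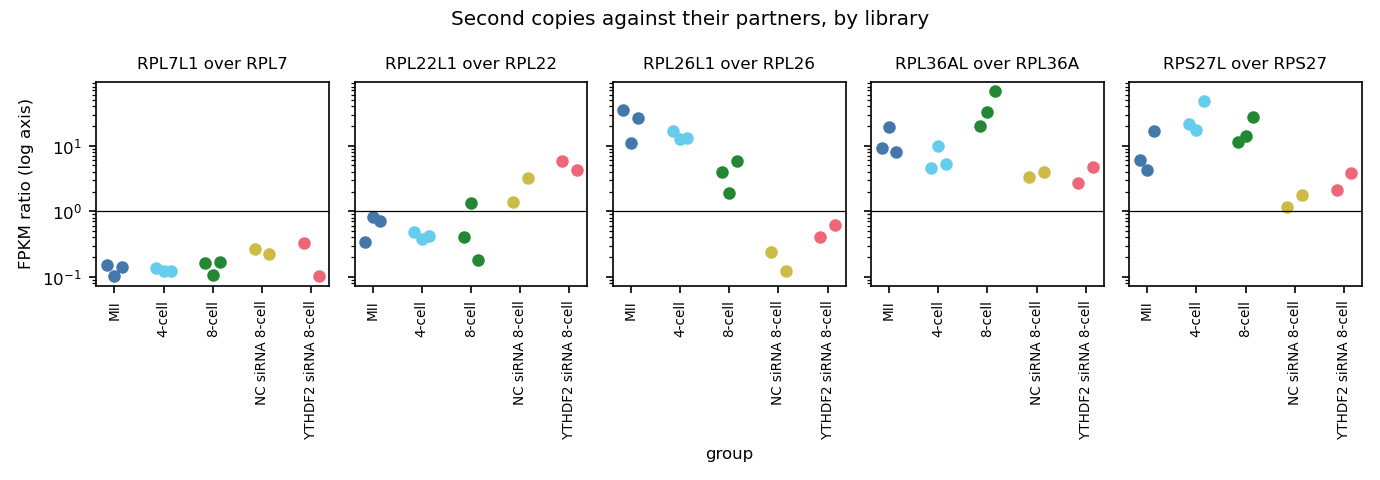
FPKM of a second copy over that of its partner (vertical axis, log scale) for 5 pairs, 1 point a library, by group (horizontal axis). RPL26L1 over RPL26 goes from above 1 in all untreated libraries to below 1 in all injected ones, and RPL7L1 over RPL7 stays between 0.101 and 0.330.

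Counts for genes that act with ribosomal proteins stand beside the shares in all genes, which against MII were 6.42% lower and 24.7% higher in 4-cell embryos and 10% and 27.3% in 8-cell embryos. Between the embryo stages these shares were 5.24 and 3.06%, and with YTHDF2 siRNA 5.92 and 2.06%. Of 18 tested genes of translation elongation and other TOP mRNAs, 0 were lower and 2 higher in 4-cell embryos than in MII, 4 lower and 4 higher in 8-cell embryos, and 1 lower and 0 higher between the 4- and 8-cell stages. EEF1A1, the main elongation factor, had a mean of 50.3 FPKM in MII and 127 in 4-cell embryos (1.36 ± 0.28, adjusted p = 0.00631). EEF1B2, its exchange factor, had 216 in MII and 73.6 in 8-cell embryos (-1.52 ± 0.27, adjusted p = 0.00204). With YTHDF2 siRNA 1 of 19 was lower (EEF1D) and 1 higher: EEF1B2 had a mean of 26.3 FPKM with NC siRNA and 119 with YTHDF2 siRNA (2.05 ± 0.46, adjusted p = 0.0188). The median of the list was 0.23 and 0.12 against MII, below the 0.29 and 0.37 of all genes, and -0.94 with YTHDF2 siRNA, where all genes had 0.01.

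Of 26 tested ribosome biogenesis genes, 2 were lower and 6 higher in 4-cell embryos and 3 lower and 8 higher in 8-cell embryos than in MII, with 2 lower and 1 higher between the 4- and 8-cell stages. The higher calls were 23.1 and 30.8% of the list, near the shares in all genes, and its medians against MII were 0.02 and 0.24. SBDS, which releases EIF6 from the large subunit, had a mean of 64.2 FPKM in MII, 175 in 4-cell embryos and 269 in 8-cell embryos (2.04 ± 0.15 against MII, adjusted p = 2.5e-05). NMD3, which exports the large subunit, had 128, 731 and 317 FPKM (2.53 ± 0.26 in 4-cell embryos, adjusted p = 0.000244). With YTHDF2 siRNA 4 of 30 were lower and 0 higher, among them NOP58 of the box C/D particles (348 to 112 FPKM, a change of -1.63 ± 0.39, adjusted p = 0.0232), and the median of the list was -0.996.

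Of 9 tested genes of RNA polymerase I and its factors, 0 were lower and 3 higher in 4-cell embryos, 1 and 1 in 8-cell embryos, 1 and 0 between these stages, and 0 with YTHDF2 siRNA. Of the chaperones of single ribosomal proteins, PDCD2L, a binding partner of RPS2, had a mean of 48.1 FPKM in MII, 21.3 in 4-cell embryos and 11.6 in 8-cell embryos (-1.96 ± 0.23, adjusted p = 0.000279). In that list 1 of 8 was lower in 4-cell embryos, 1 lower and 1 higher in 8-cell embryos, 0 between these stages and 0 of 9 with YTHDF2 siRNA. Of 15 TOP mRNA regulators and S6 kinases, 0 were lower and 2 higher in 4-cell embryos, 0 and 6 in 8-cell embryos and 0 and 1 between them, and 0 of 18 were called with YTHDF2 siRNA. The higher calls against MII were 13.3 and 40% of that list, and 33.3 and 11.1% of the polymerase I list. With YTHDF2 siRNA the medians were -0.47 for the polymerase I list, -0.82 for the chaperones and -0.01 for the TOP regulators.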

How the data were processed

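The deposited values are FPKM in 5 tables, which the authors made from HISAT2 alignments to ARS1 by taking only unique hits and counting with HTSeq. No column of values was left unused. Whether counting used strand is not given in the sources used here. Fragments per gene of the untreated libraries were recovered from the FPKM steps; the injected tables keep 2 decimals, so their depth is unknown. Fits used limma 3.58.1 (R 4.3.3) on log2(FPKM + 1), over genes whose mean reached 1 FPKM, with all 9 untreated libraries in 1 fit and the 4 injected ones in another, and were tested on simulated data. Untreated and injected tables were not tested against each other.

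The members and lists were chosen with earlier results of these data known. Genes were named by rule: the 5 highest and 5 lowest by mean untreated level, up to 5 called furthest each way in each comparison, genes of set roles (RPLP0, RPLP1, RPLP2, RPL5, RPL11, RPS6, RPSA, RPS27A) and second copies with partners, and up to 3 called genes of a pathway list. RPS9, RPL19 in the injected tables, RPS2 and the members above 0 with YTHDF2 siRNA were named after their values were seen. Alternatives were another pseudocount, filters, 2 rescalings, voom on recovered fragments, a length correction (lowess), the replicate block and leaving out each library. Promoter and protein sequences were not analysed here.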

Additional observations from a re-analysis of the deposited data

How the results depend on the processing

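Whether replicate numbers pair the libraries is not given. The correlation of the deviations of same-numbered libraries ran from -0.51 to 0.20 in the untreated groups and was -0.15 in the injected groups. These values cannot decide it, since the deviations of so few libraries in a group are tied to each other. With the replicate block, 18 members were lower and 2 higher in 4-cell embryos than in MII, 26 and 5 in 8-cell embryos, 2 and 1 between the 4- and 8-cell stages, and 19 and 0 with YTHDF2 siRNA. With the crossed replicate block, chosen after seeing the data, 51 were lower with YTHDF2 siRNA.

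Leaving out 1 library at a time gave 8 to 22 lower and 0 to 6 higher members in 4-cell embryos against MII (median -0.85 to -0.19), 13 to 35 and 1 to 8 in 8-cell embryos (median -0.99 to -0.45), 0 to 4 and 1 to 1 between the 4- and 8-cell stages (median -0.42 to 0.0635), and 9 to 39 and 0 to 0 with YTHDF2 siRNA (median -1.37 to -0.88). With 1 injected library left in a group, limma took its spread to be that of the other group. With no filter, 10 were lower and 0 higher in 4-cell embryos, 15 lower in 8-cell embryos and 0 lower with YTHDF2 siRNA. Median-ratio rescaling gave 0 higher at the 4- and 8-cell stages against MII and 2 lower between them. The same sum over shared names gave 28 lower and 0 higher in 4-cell embryos, 0 higher in 8-cell embryos and 2 lower between them. A filter at a mean of 10 FPKM gave 6 higher in 8-cell embryos. With voom, 2 and 5 were higher at the 4- and 8-cell stages against MII. Without both high libraries, chosen after seeing the data, 8 and 8 were higher. Without the second copies, 0 were higher in 4-cell embryos. By the rule of the study 3 were higher in 4-cell embryos against MII, 2 were higher between the 4- and 8-cell stages, and 44 were lower with YTHDF2 siRNA. With the length trend taken out the median with YTHDF2 siRNA was -0.74. The cause of these differences was not tested, except that a filter changes the genes tested and a left-out library the samples. Over all names of each table the NC siRNA share was 8.15%, and without second copies the small minus large difference with YTHDF2 siRNA was 1.11. Of the named genes only those called were followed across the settings that tested them, and these kept their sign. The depth of the injected libraries is unknown, which limits what can be said of their low genes.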
